A study of Mus musculus with 6 samples.

Results

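The 10 genes described here are the classical transcription factors of epithelial-mesenchymal transition (EMT), Snai1, Snai2, Zeb1, Zeb2, Twist1 and Twist2, with the cadherins Cdh1, Cdh2 and Cdh11 and the intermediate filament gene Vim. The rule lists them by symbol and uses no measured value, although the set was proposed with earlier results of these data known, and all 10 were found among the 49315 Ensembl genes of the count table. RNA sequencing compared 3 libraries of MNRR1-knockout (KO) cells with 3 libraries of wild-type (WT) cells, both from TKO, a mouse ovarian cancer line whose name stands for triple knockout. WT therefore means that MNRR1, the product of Chchd2 and a protein of mitochondria and nucleus, is intact, while the engineered alleles behind the line's name, which the labels do not identify, are shared by all 6 libraries. The KO libraries carry 1 clone name, so differences between genotypes also hold whatever sets this clone apart. The labels do not say that replicates were separate cultures, and the p-values measure the spread between these libraries only.

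EMT is the programme by which epithelial cells loosen their junctions and take on a motile, fibroblast-like form. Snail and Zeb zinc finger proteins and Twist helix-loop-helix proteins bind E-box sequences and repress epithelial genes, of which Cdh1 (E-cadherin) is the best known. Loss of E-cadherin with gain of N-cadherin (Cdh2) and vimentin is the textbook readout of the programme, and ovarian surface and carcinoma cells are known to hold epithelial and mesenchymal traits at once.

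Of the 10 members, 3 rose in KO cells (Zeb1, Snai2 and Cdh2), 5 fell (Snai1, Zeb2, Twist1, Cdh11 and Vim) and 2 did not pass the test (Twist2 and Cdh1). The count of risers was 1 without KO replicate 1 or WT replicate 2 and 2 without KO replicate 2, WT replicate 1 or WT replicate 3. Snai2 rose while Snai1 fell, and Zeb1 rose while Zeb2 fell, although Snai2 lost its call in 4 of 14 alternative settings. Snai3, a further Snail gene outside the members, fell like Snai1 (log2 change -1.03, adjusted p = 0.0381 in edgeR), with at most 35 counts in a library. Cdh1 was close to the detection limit in both genotypes, whereas Cdh2 was abundant in both. A gene was called at an adjusted p under 0.05 in edgeR's quasi-likelihood fit over 16033 genes, and 55.7% of those genes were called, 27.8% higher and 27.8% lower in KO. The member count of 8 of 10 called therefore stands against a background in which most genes were called. The median log2 change of the members was -0.67, against 0.01 for all tested genes. Placing Twist1 at its bound could not move this median, since Twist1 remained the lowest member. All 10 members passed the low-count filter, Twist1 through its WT libraries alone. The KO and WT libraries did not overlap for 8 members, as for 64.0% of all tested genes.

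Chchd2 itself, the targeted gene, stood in KO replicates 1 to 3 at 16.6, 17.6 and 17.0 CPM (counts scaled to library size, scaled by trimmed mean of M values, TMM) against 367, 349 and 340 CPM in the WT libraries. The labels and the targeted gene thus went together in every library. Total counts ran from 33226463 to 40983999 per library. KO replicate 2 stood apart from the other KO libraries: over all tested genes its log2 CPM correlated at 0.967 to 0.970 with the WT libraries, against 0.952 to 0.960 for KO replicates 1 and 3, and its counts differed from theirs with a chi-square per degree of freedom of 13.9 and 29.1, against 6.78 between those libraries. Of the markers of the ovarian surface and its carcinomas, Krt7, Krt8, Krt18, Krt19, Wt1, Muc16 and Msln were abundant in both genotypes, while Pax8 was under the filter and Epcam was low, with 76 to 114 counts in the KO libraries and 75 to 95 in those of WT. Of 8 tested in this list of 9, 4 fell (50%) and 2 rose (25%), beside 27.8% each way of all tested genes. The greatest changes were those of Krt7 (299 to 81.3 CPM) and Msln (281 to 108 CPM). The 9 markers summed to 2251 to 2381 CPM in KO and 2775 to 2930 CPM in WT libraries. The summed markers of granulosa cells (2.97 to 3.41 CPM in KO, 1.62 to 3.10 in WT), endothelium (2.70 to 3.64 and 5.69 to 6.20), leukocytes (3.02 to 3.69 and 5.29 to 7.82) and erythroid cells (1.52 to 1.92 and 0.974 to 1.61) were low, and Fshr, Cyp19a1, Tie1 and Cd3e had no count in any library.

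Promoter sequences are shown for 4 of the members with an entry in the promoter table, as the sequence context of their genes. Windows of Snai1, Zeb2, Twist1, Twist2 and Vim were taken from the table of RefSeq promoters (GRCm38.p6). Each runs from 250 bases before to 50 bases after a start site, 300 bases in all. A member not named here may still have an entry in that table. Capitals mark every match to 4 motifs searched on both strands. These were the E-box core that Snail and Zeb proteins bind (CACCTG), the site of the AP-1 factors (TGACTCA), the core promoter element known as the TATA box (with the letters TATAAA) and the GC box of Sp1-like factors (GGGCGG). The 4 windows below are those of Snai1 and Vim, which fell, of Twist1, which was not detected in KO, and of its paralogue Twist2, which did not pass the test. All are on the plus strand, at chr2:167537945-167538244 (Snai1), chr2:13574061-13574360 (Vim), chr12:33957421-33957720 (Twist1) and chr1:91801211-91801510 (Twist2).
Snai1: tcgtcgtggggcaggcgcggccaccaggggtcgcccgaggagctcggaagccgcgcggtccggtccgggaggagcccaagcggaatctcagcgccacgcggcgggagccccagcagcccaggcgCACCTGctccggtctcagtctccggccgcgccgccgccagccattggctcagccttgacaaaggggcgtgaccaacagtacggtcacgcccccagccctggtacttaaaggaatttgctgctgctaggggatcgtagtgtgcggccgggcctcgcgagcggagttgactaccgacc
Vim: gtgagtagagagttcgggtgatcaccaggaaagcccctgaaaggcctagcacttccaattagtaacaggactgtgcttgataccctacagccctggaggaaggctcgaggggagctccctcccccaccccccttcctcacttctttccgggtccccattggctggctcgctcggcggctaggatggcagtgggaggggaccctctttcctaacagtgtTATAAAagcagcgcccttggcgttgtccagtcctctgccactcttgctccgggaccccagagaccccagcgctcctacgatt
Twist1: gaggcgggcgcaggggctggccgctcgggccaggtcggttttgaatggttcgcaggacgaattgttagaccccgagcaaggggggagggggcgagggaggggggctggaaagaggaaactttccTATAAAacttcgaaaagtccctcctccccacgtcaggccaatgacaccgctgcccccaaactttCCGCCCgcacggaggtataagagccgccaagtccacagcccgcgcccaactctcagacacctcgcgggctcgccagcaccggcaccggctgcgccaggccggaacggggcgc
Twist2: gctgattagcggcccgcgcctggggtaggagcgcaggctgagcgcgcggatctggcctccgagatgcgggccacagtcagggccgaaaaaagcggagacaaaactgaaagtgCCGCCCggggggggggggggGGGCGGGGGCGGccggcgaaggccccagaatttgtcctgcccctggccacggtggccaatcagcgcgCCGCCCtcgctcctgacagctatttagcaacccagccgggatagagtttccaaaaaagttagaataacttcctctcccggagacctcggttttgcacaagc

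The Snai1 window held 1 E-box core, beginning 126 bases before the start site. The Snail family is known to bind E-boxes in its own promoters. Such a core was present in 20.2% of the 32851 promoter windows of this length in the table. The Vim window held a TATA box at 32 bases before the start, and Twist1 one at 126 bases, a motif found in 13.6% of all windows. Twist2 had 4 GC boxes and Twist1 had 1, and 35.7% of all windows held at least 1. The marked matches did not overlap each other. The windows of Twist1 and Twist2 were alike in composition, with GC contents of 66.0% and 64.7% and 27 and 25 CpG dinucleotides, against medians of 52.7% and 7 over all windows. Among the 4 start sites of Zeb2, the AP-1 motif occurred only in the window at chr2:45110228-45110527, 2 times, and it was present in 5.20% of all windows. A match describes the letters in the window and nothing more.

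Snai1 encodes Snail, the zinc finger repressor first placed at the Cdh1 promoter. Its gene lies on chromosome 2 from 167538195 to 167542814 of GRCm38. Its level was 2.55, 2.60 and 2.04 CPM in KO replicates 1 to 3 and 5.72, 5.17 and 4.89 CPM in WT replicates 1 to 3. Every KO library was lower than every WT library, by a wide margin compared with the spread inside either genotype. Snai1 fell by 1.13 on the log2 scale (SE 0.15; adjusted p = 1.18e-04 by edgeR), so KO cells held 45.6% of the WT level.

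Snai2, which encodes the close relative Slug (chromosome 16, 14705852 to 14709385), moved the other way from a low base. KO replicates 1 to 3 had 65, 104 and 62 counts against 52, 43 and 38 for WT, with means of 2.00 ± 0.494 and 1.24 ± 0.266 CPM (SD, n = 3 each). KO replicate 2 was the highest, and after scaling the lowest KO library exceeded the highest WT library only narrowly. Snai2 rose by 0.70 on the log2 scale (SE 0.25; adjusted p = 0.0325 in edgeR). Leaving out KO replicate 1 (adjusted p = 0.0578), KO replicate 2 (0.119), WT replicate 2 (0.0743) or WT replicate 3 (0.122) ended the call, and across the settings edgeR and the other tools gave adjusted p from 0.0144 to 0.122.

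Zeb1, a repressor with paired zinc finger clusters (chromosome 18, 5591860 to 5775467), was the most abundant of the 6 factors in both genotypes. It was at 63.6, 62.6 and 63.2 CPM in KO replicates 1 to 3 and at 50.2, 46.2 and 46.5 CPM in WT replicates 1 to 3. The KO libraries lay close together, all above WT. The rise was 0.41 on the log2 scale (SE 0.06), with an adjusted p of 1.36e-04.

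Zeb2, its paralogue (chromosome 2, 44983632 to 45117395, minus strand), fell. The KO libraries held 3.81, 5.72 and 2.84 CPM, in replicate order, and the WT libraries between 9.19 and 10.4 CPM. KO replicate 2 lay nearest to WT, yet still below all 3 WT libraries. Zeb2 fell by 1.26 on the log2 scale (SE 0.21; adjusted p = 5.69e-04 in edgeR), to 41.7% of WT. The antisense gene Zeb2os shares 653 exonic bases with Zeb2 but had at most 4 counts in a library, and Gm10125, which shares 198 bases with Zeb1 on the opposite strand, had at most 12.

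Twist1 encodes a helix-loop-helix factor of mesoderm and neural crest (chromosome 12, 33957671 to 33959829). It had 0 counts in all 3 KO libraries and 11, 10 and 18 counts in WT replicates 1 to 3. No count in the whole KO group leaves room for 3 counts (95% limit), which is 0.0262 CPM over that group, against 0.359 CPM over the WT group. Against the measured WT level, Twist1 was thus at least 13.7-fold lower in KO. That WT level was itself the lowest of the 6 factors. Twist1 passed the low-count filter through its WT libraries alone, so its edgeR call (adjusted p = 3.67e-04) adds no separate support. The limit covers counting error of the KO group only and leaves out that of the WT counts.

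Twist2, the paralogue better known from dermis and bone precursors (chromosome 1, 91801461 to 91848028), was detected at similar levels in both genotypes. It stood at 6.18, 7.91 and 7.71 CPM in KO and 8.50, 9.03 and 6.65 CPM in WT replicates 1 to 3, and the genotypes overlapped. The log2 change was -0.14, with a 95% interval of -0.46 to 0.18 (adjusted p = 0.424). An antisense gene, Gm29100, overlaps 1477 of its 3174 exonic bases and had 23 to 48 counts per library. Without a stated strand setting, reads of this pair cannot be told apart.

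**Figure D1:**
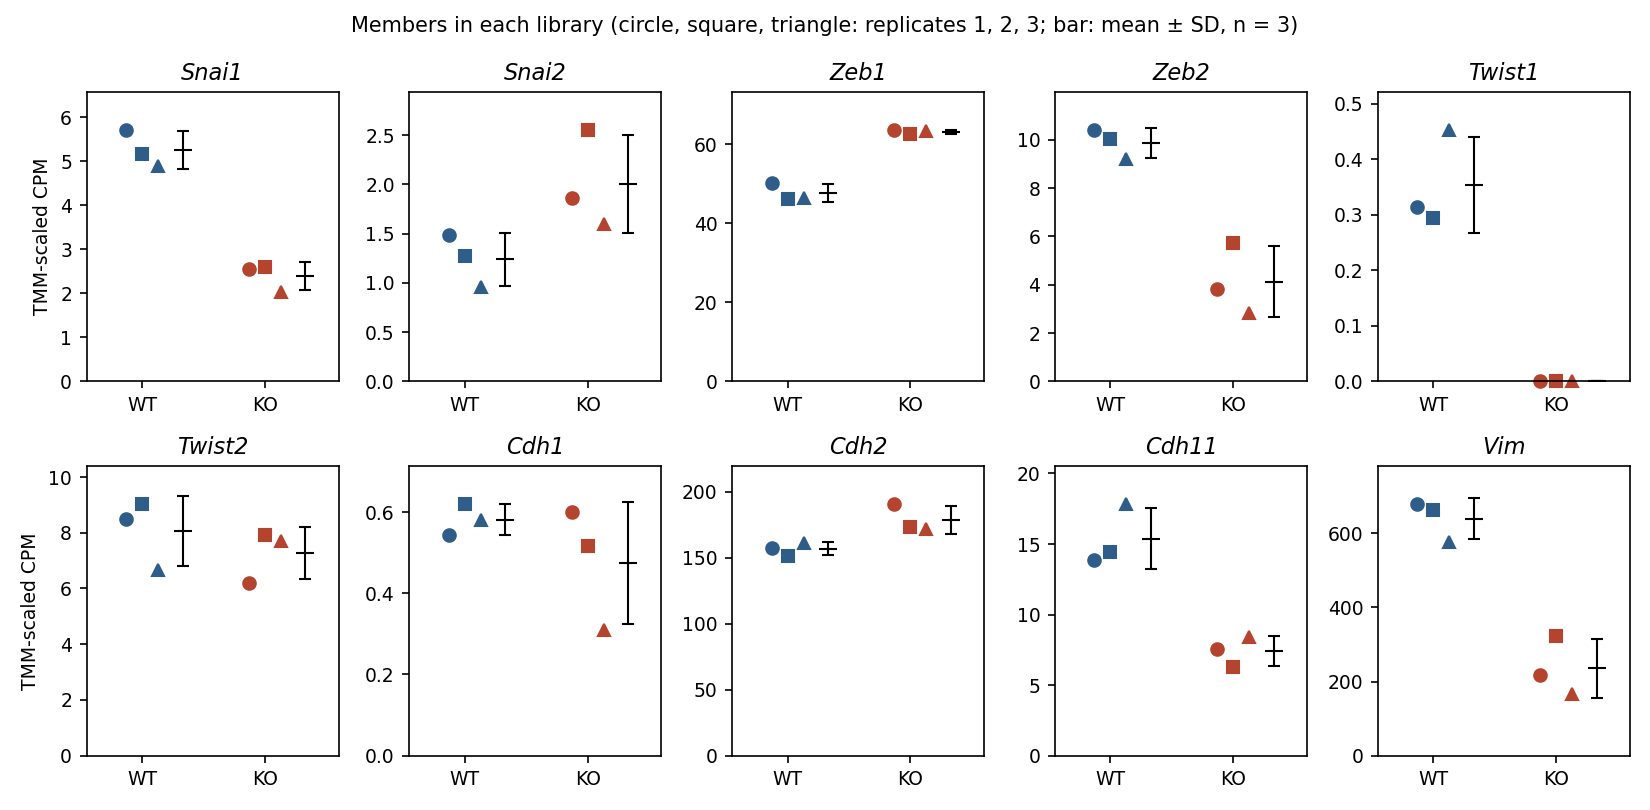
TMM-scaled CPM (vertical axes, each from 0) of the 10 members in WT (blue) and KO (red) libraries; marker shape gives the replicate number and the black bar the mean ± SD of 3 libraries. Only Twist2 and Cdh1 show overlapping genotypes, Twist1 is at 0 in every KO library, and KO replicate 2 (square) is the KO library nearest to WT for Vim and Zeb2.

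Levels of different genes were compared per exon length, as FPKM, which is TMM-scaled CPM per kilobase of exon. Exons of all annotated transcripts were merged, giving 19942 bases from 29 transcripts for Zeb2 and 2021 from 1 for Snai2. Ranks depend on this length, which can understate genes with many transcripts, and other lengths were not tried. In WT libraries the factors ranked Zeb1 (4.64 ± 0.216 FPKM), Snai1 (3.24 ± 0.262), Twist2 (2.54 ± 0.394), Snai2 (0.613 ± 0.132), Zeb2 (0.495 ± 0.0313) and Twist1 (0.218 ± 0.0530; SD, n = 3 each). Snai2 and Zeb2 overlapped between libraries, whereas the other neighbours in this order did not. In KO libraries the order was Zeb1 (6.15 ± 0.0526 FPKM), Twist2 (2.29 ± 0.297), Snai1 (1.48 ± 0.193), Snai2 (0.992 ± 0.244), Zeb2 (0.207 ± 0.0737) and Twist1 at 0. Here Snai1 and Snai2 overlapped between libraries. Mean Snai1 thus stood above Twist2 in WT and below it in KO, and Zeb1 led in both.

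The opposite movement of Snai1 and Snai2 and of Zeb1 and Zeb2 was also measured as a ratio of counts within each library. Such a ratio does not depend on how libraries are scaled. These family ratios were chosen after the values were seen. Snai2 counts were 0.730, 0.981 and 0.785 of Snai1 counts in KO replicates 1 to 3 and 0.260, 0.246 and 0.196 of them in WT replicates 1 to 3. Zeb1 counts were 16.7, 10.9 and 22.3 times those of Zeb2 in KO and 4.82, 4.60 and 5.06 times in WT replicates 1 to 3. The genotypes did not overlap in either ratio, and the spread of the Zeb ratio was much wider in KO. On the log2 scale the mean Snai2 to Snai1 ratio differed by 1.82 and the Zeb1 to Zeb2 ratio by 1.72, each with p = 0.1 in an exact two-sided permutation test, the smallest that 3 against 3 libraries allow.

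Cdh1 (chromosome 8, 106603351 to 106670246) encodes E-cadherin, the calcium-dependent adhesion protein of epithelial junctions. KO replicates 1 to 3 had 21, 21 and 12 reads counted and WT replicates 1 to 3 had 19, 21 and 23, or 0.309 to 0.620 CPM. The genotypes overlapped, and KO replicate 3 was the lowest library. The fitted log2 change of -0.29 (SE 0.33) had a 95% interval of -1.02 to 0.44 (adjusted p = 0.479 in edgeR). At this depth a 2-fold fall of Cdh1 lies just inside the interval and a 2-fold rise outside it.

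Cdh2 encodes N-cadherin, typical of neural, mesothelial and mesenchymal cells (chromosome 18, 16588877 to 16809246, minus strand). Its level was 191, 173 and 172 CPM in KO and 158, 151 and 161 CPM in WT replicates 1 to 3. All KO libraries were above all WT libraries, but the difference was small. The rise was 0.19 on the log2 scale (SE 0.06), with an adjusted p of 0.0150. The call ended when WT replicate 1 (adjusted p = 0.0546), WT replicate 2 (0.0884) or KO replicate 1 (0.0895) was left out, and adjusted p spanned 9.87e-04 to 0.0895 across settings. With library totals in place of TMM the rise was 0.31.

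Zeb1 and Cdh2 both lie on chromosome 18, where the 415 other tested genes had a median log2 change of 0.15, with 175 of them (42.2%) higher and 92 lower in KO. Within 5 Mb the neighbours of Zeb1 (7 higher and 7 lower of 29, median 0.03) and of Cdh2 (7 higher and 12 lower of 31, median -0.02) did not lean upward. The part of the chromosome in these rises was not tested.

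Cdh11 encodes a type II cadherin of mesenchyme and bone (chromosome 8, 102632095 to 102785642, minus strand). It was at 7.56, 6.31 and 8.38 CPM in KO and at 13.9, 14.4 and 17.8 CPM in WT replicates 1 to 3. No library of one genotype reached the range of the other. Cdh11 fell by 1.05 on the log2 scale (SE 0.13; adjusted p = 7.03e-05 in edgeR), to 48.2% of WT.

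The balance of N- to E-cadherin was tested as a ratio of counts within each library. Cdh2 counts were 317, 336 and 555 times those of Cdh1 in KO replicates 1 to 3 and 290, 244 and 278 times in WT replicates 1 to 3. The KO libraries were all above WT, with the greatest distance in KO replicate 3, where Cdh1 had 12 counts. The mean log2 ratio was 8.56 ± 0.43 in KO and 8.04 ± 0.13 in WT (SD, n = 3 each), a difference of 0.52 that dropped to 0.27 without KO replicate 3. By exact permutation (two-sided) p was 0.1, which 3 against 3 libraries cannot go below.

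The same ratio against other partners, chosen after the values were seen, separated the genotypes further. Cdh2 counts were 25.2, 27.4 and 20.5 times those of Cdh11 in KO and 11.3, 10.5 and 9.04 times in WT replicates 1 to 3, a difference of 1.24 on the log2 scale (p = 0.1 by exact permutation). Against Cdh3, the gene of P-cadherin, they were 1.38, 1.18 and 1.42 times in KO and 0.606, 0.604 and 0.588 times in WT, a difference of 1.14 on the log2 scale (p = 0.1 by exact permutation). Cdh3 lies 46.1 kb from Cdh1 on chromosome 8, on the same strand.

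**Figure D2:**
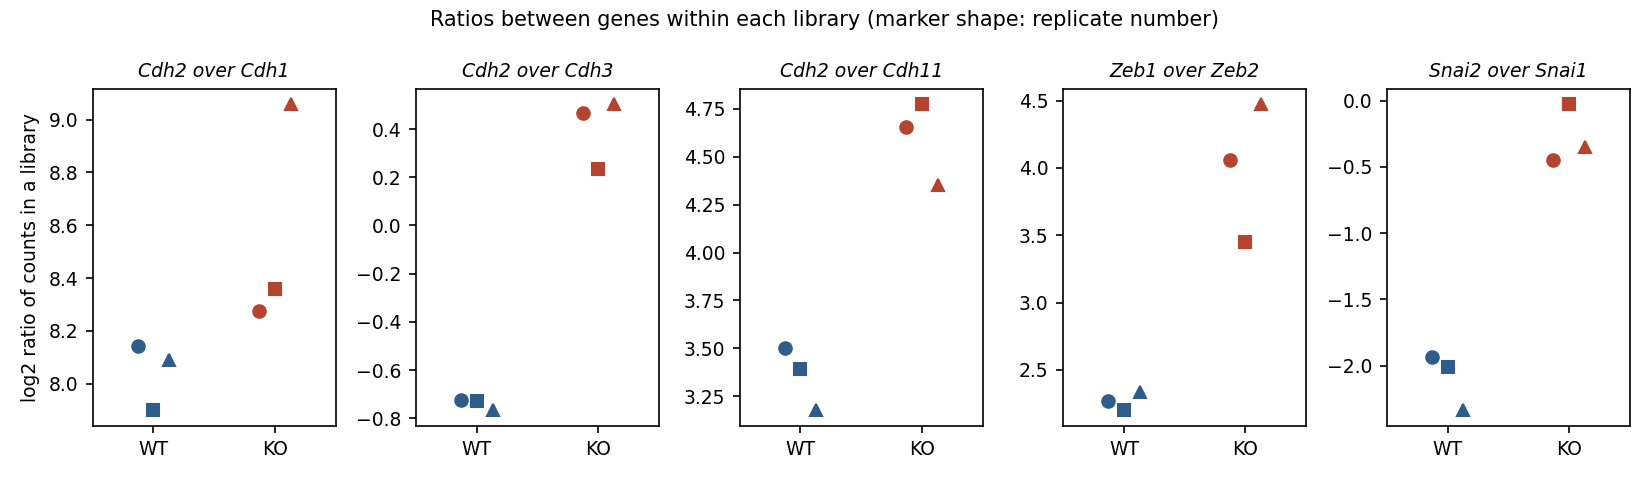
Log2 ratio of raw counts between pairs of genes within each library, WT (blue) and KO (red), with marker shape for replicate number; each vertical axis has its own range. In all 5 ratios the KO libraries lie above the WT libraries, and for Cdh2 over Cdh1 the separation is narrow except in KO replicate 3.

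Placed among 22 cadherin genes, the dominant transcripts per length were Cdh3 and Cdh2. In WT libraries Cdh3 stood at 59.7 ± 2.71 FPKM, Cdh2 at 19.4 ± 0.615 FPKM, Cdh24 at 6.13 ± 0.546 FPKM and Cdh11 at 1.73 ± 0.240 FPKM, while Cdh1 was at 0.127 ± 0.00836 FPKM. In KO libraries Cdh3 was at 30.9 ± 3.00 FPKM, Cdh2 at 22.1 ± 1.31 FPKM, Cdh24 at 6.48 ± 0.231 FPKM, Cdh11 at 0.833 ± 0.117 FPKM and Cdh1 at 0.104 ± 0.0328 FPKM (SD, n = 3 each). Among these levels the fall of Cdh3 was the greatest in absolute terms. In the edgeR fit Cdh3 changed by -0.95 (SE 0.07; adjusted p = 2.29e-06).

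Summed over the 22 genes, cadherin transcripts came to 63.8, 63.2 and 57.5 FPKM in KO and 87.0, 85.0 and 92.3 FPKM in WT replicates 1 to 3 (p = 0.1, exact two-sided permutation test). Cdh2 made up 36.0% ± 1.77 of this sum in KO and 22.1% ± 0.397 in WT libraries, and Cdh1 0.167% ± 0.0453 and 0.144% ± 0.0131 (SD, n = 3 each). N-cadherin thus took a larger share of a smaller total, while the share of Cdh3 was 50.2% ± 2.62 in KO and 67.8% ± 0.418 in WT. Of the 19 other cadherins, 4 were tested and 6 had no count in any library. Among those tested 1 (Cdh3) fell (25%), 0 rose and 3 did not pass, beside 27.8% each way of all tested genes.

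**Figure D3:**
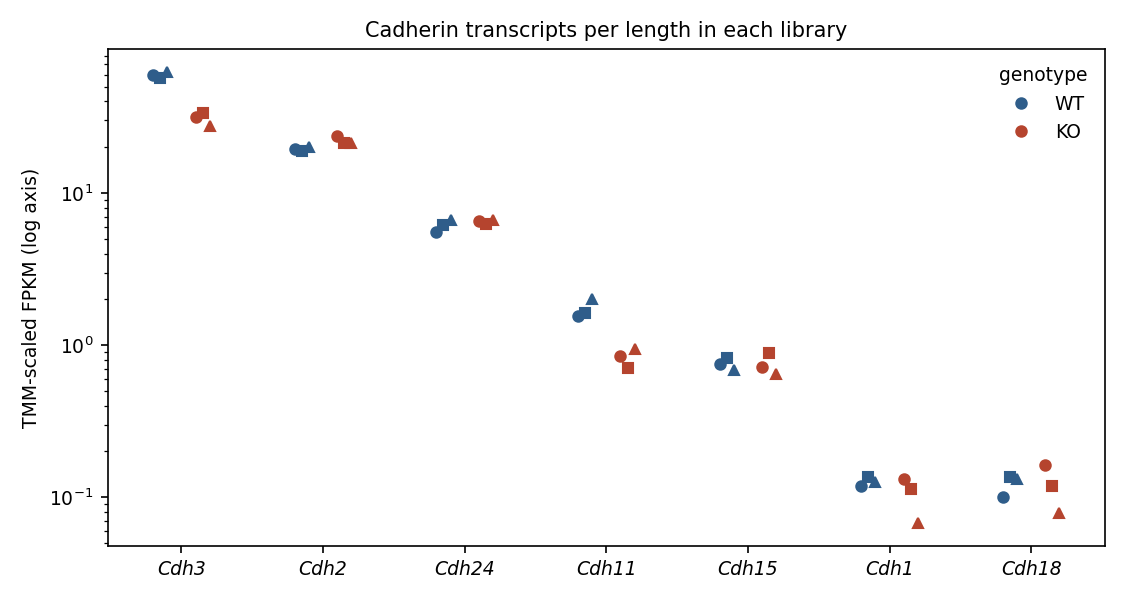
TMM-scaled FPKM on a log axis for cadherin genes detected in every library with a mean of at least 0.1 FPKM in a genotype, ordered by WT level; points are libraries, blue WT and red KO. Cdh3 and Cdh11 are lower in KO, Cdh2 is slightly higher, and Cdh1 lies more than 100-fold below Cdh2 in both genotypes.

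Vim encodes vimentin, the intermediate filament protein of mesenchymal cells (chromosome 2, 13573927 to 13582826). It was the most abundant member, at 219, 323 and 165 CPM in KO and 679, 664 and 577 CPM in WT replicates 1 to 3. The KO libraries were spread widely, but all lay far below the lowest WT library, and KO replicate 2 lay nearest to WT. Vim fell by 1.44 on the log2 scale (SE 0.25; adjusted p = 0.00446 in edgeR). The KO mean was 36.8% of the WT mean. Without KO replicate 2 the log2 change was -1.74.

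Most smooth muscle markers were lower beside Vim, and fibroblast markers were mixed. The 5 smooth muscle markers summed to 91.0 to 106 CPM in KO and 263 to 293 CPM in WT libraries. Of 5 tested, 4 were lower (80%) and 0 higher, beside 27.8% each way of all tested genes. The 7 fibroblast markers summed to 461 to 501 CPM in KO and 620 to 659 CPM in WT libraries. Of 5 tested, 2 were lower (40%) and 1 higher (20%). Among the fibroblast markers, Col1a1 fell from 134 ± 5.48 to 10.3 ± 1.85 CPM and Thy1 had no count in KO, Pdgfrb rose from 1.08 ± 0.194 to 4.75 ± 1.42 CPM, and Dcn and Pdgfra did not pass. Col1a2 had at most 2 counts in any library. In bulk RNA, fewer cells of a kind and less RNA per cell cannot be told apart, and the part of these markers in the fall of Vim was not tested.

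Although KO replicate 2 was nearest to WT over all genes, this varied among the members. Among the 7 called members with distinct KO counts, KO replicate 2 was the nearest to the WT mean for 4 (Snai1, Zeb1, Zeb2 and Vim) and KO replicate 3 for 3 (Snai2, Cdh2 and Cdh11), while KO replicate 2 was the farthest for Snai2 and Cdh11. Without KO replicate 2, 2 members were called higher and 5 lower, beside 4938 higher and 5064 lower of 16510 tested genes. The log2 changes were then -1.20 for Snai1, 0.48 for Snai2, 0.41 for Zeb1, -1.58 for Zeb2, 0.21 for Cdh2, -0.95 for Cdh11 and -1.74 for Vim.

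**Figure D4:**
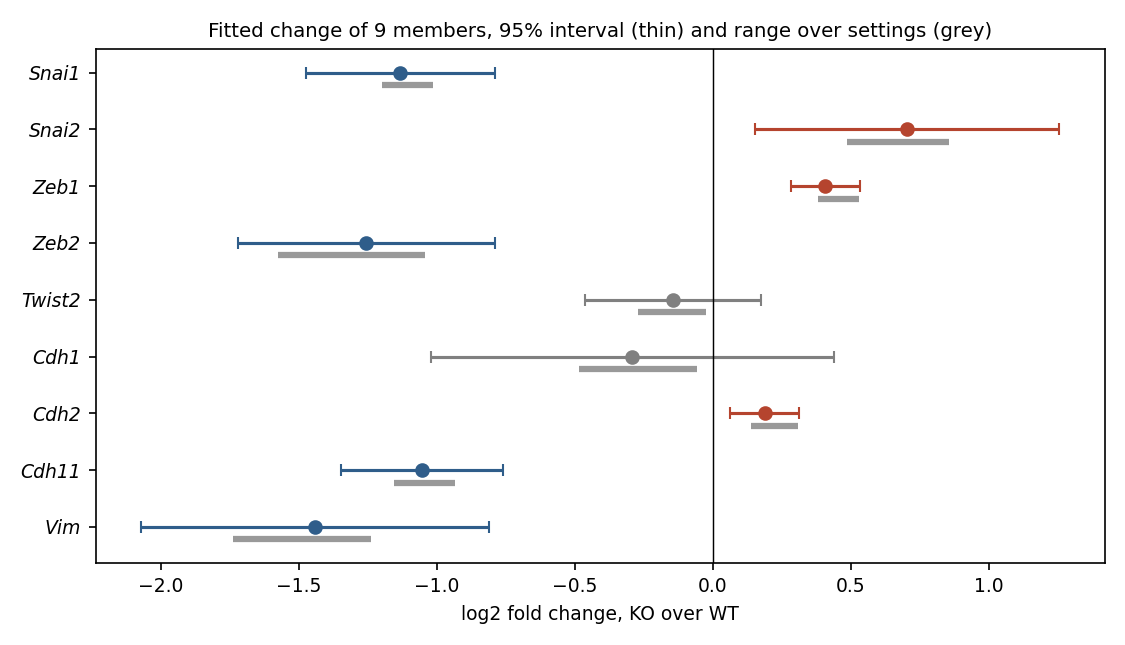
Fitted log2 change (KO over WT) of 9 members with 95% intervals, red higher, blue lower and grey not called; the grey bar under each gives the range over all settings tried. Twist1 is left out because its KO counts are 0. The intervals of Twist2 and Cdh1 cross 0, and those of Snai1, Zeb2, Cdh11 and Vim lie wholly below it.

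The genes that work with these factors were followed through 10 further lists with tested members, whose counts stand beside the 27.8% higher and 27.8% lower of all tested genes and are given as descriptions. Among transcription factors counted as other EMT drivers, 4 were higher (44.4%), 2 lower (22.2%) and 3 not called of 9 tested, with a median log2 change of 0.06. The 4 became 2 without KO replicate 3, WT replicate 1 or WT replicate 2, and the 2 lower became 1 without KO replicate 1 or WT replicate 1 and 0 without KO replicate 3 or WT replicate 2. Foxc1, a forkhead factor, averaged 55.1 ± 5.64 CPM in KO against 38.8 ± 7.42 CPM in WT, or 0.50 on the log2 scale. Leaving out KO replicate 2 (adjusted p = 0.0586) or KO replicate 3 (0.0574) ended the call, in a range of 3.53e-10 to 0.0586. Sox4 was at 0.28, and Tbx3 at 0.33 and Runx2 at -0.35, both of which lost their calls in several settings, with adjusted p up to 0.111 and 0.105. Prrx1, Foxc2, Gsc and the other 3 untested genes of this list were under the filter.

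Partners of Twist and its helix-loop-helix relatives form the next list. E proteins pair with Twist, and Id proteins sequester E proteins. Tcf4, an E protein also known as E2-2, rose from 37.7 ± 1.84 to 70.7 ± 3.82 CPM (SD, n = 3 each), or by 0.91 on the log2 scale (SE 0.06; adjusted p = 1.59e-06 in edgeR). It shares chromosome 18 with Zeb1. Tcf3, the gene of E12 and E47, rose by 0.40, while Id2 fell by 1.22 on the log2 scale and Hand2 from 73.2 ± 3.98 to 42.1 ± 4.15 CPM. Of the 7 tested genes in this list, 2 rose, 2 fell and 3 did not pass, which is 28.6% each way, and the median was 0.01.

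Corepressors of the factors went both ways, with 4 higher (26.7%), 6 lower (40%) and 5 not called of 15 tested and a median of -0.02. The LIM protein gene Ajuba, whose product links Snail to its corepressors, fell from 179 ± 11.9 to 89.6 ± 9.72 CPM. Ctbp1, another corepressor gene of this list, changed by -0.57. Rcor1, a scaffold of the histone demethylase complex, rose by 0.40 and the histone methyltransferase gene Ehmt2 by 0.45. With scaling by library totals, 3 members of this list were lower instead of 6.

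Among kinases and ubiquitin ligases that set the stability of Snail proteins, 4 rose (36.4%) and 5 fell (45.5%) of 11 tested, with a median of 0.06, and the risers became 2 without KO replicate 1, WT replicate 1 or WT replicate 2. Btrc, the F-box protein that recognises phosphorylated Snail for degradation, rose from 19.8 ± 0.522 to 31.3 ± 2.20 CPM, or by 0.66 on the log2 scale. Lats2, a kinase of the Hippo pathway reported to stabilise Snail, fell by 0.83 on the log2 scale, and Mdm2 fell by 0.35. Usp27x, a deubiquitinase, was at 0.37 and lost its call in 7 settings, with an adjusted p of up to 0.137.

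Factors that oppose EMT were sparse, with 5 of 14 tested. Of these 3 rose (60%), 1 fell (20%) and 1 did not pass, and the median log2 change was 0.51. Elf3, an epithelial ETS factor, rose from 3.44 ± 0.289 to 11.9 ± 2.05 CPM and Foxa1, a pioneer factor of epithelial lineages, from 0.390 ± 0.106 to 1.40 ± 0.458 CPM (SD, n = 3 each). Grhl1, a grainyhead factor, rose by 0.51, whereas Esrp2, an epithelial splicing regulator, fell by 0.74. Its paralogue Esrp1 and Grhl2 and Ovol2 were all under the filter, with at most 10 counts in a library.

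Of 18 tested epithelial genes reported to be repressed by Snail or Zeb proteins, 5 rose (27.8%), 6 fell (33.3%) and 7 did not pass, shares close to those of all tested genes, and the median was -0.03. Tjp3, the gene of the tight junction scaffold ZO-3, rose from 0.305 ± 0.151 to 2.69 ± 0.592 CPM. It had only 7, 8 and 19 counts in WT replicates 1 to 3, so it passed the low-count filter through its KO libraries. The claudin gene Cldn3 fell from 54.3 ± 6.49 to 21.3 ± 2.83 CPM, Lsr of tricellular junctions from 39.9 ± 1.30 to 12.3 ± 1.17 CPM and Marveld2, its tricellular partner tricellulin, from 6.16 ± 0.755 to 2.71 ± 0.309 CPM. The list thus held genes of tight junctions on both sides of 0.

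Catenins tie cadherins to actin, and nectins seed the junction. Of 12 tested genes of this list 2 rose (16.7%), 6 fell (50%) and 4 did not pass, with a median log2 change of -0.13, and with library totals 5 rose. Ctnnb1, the gene of beta-catenin, rose from 478 ± 8.64 to 669 ± 38.3 CPM, which edgeR fitted as a log2 difference of 0.49 (SE 0.06; adjusted p = 3.75e-05). Nectin2 fell by 1.09, Nectin4 by 0.93 and Vcl, the gene of vinculin, by 0.59 on the log2 scale. In the same cells, therefore, the junction genes around Cdh2 went in both directions.

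Of 8 tested genes whose products cleave or degrade cadherins, 5 rose (62.5%) and 2 fell (25%), with a median of 0.23. The proprotein convertase gene Furin, which removes the cadherin prodomain, rose by 0.69 and the presenilin gene Psen2 by 0.62. Mmp14, a membrane protease, fell from 6.92 ± 0.433 to 0.147 ± 0.0295 CPM. Bace1 was at 0.39, and its call ended when WT replicate 1 (adjusted p = 0.0648), WT replicate 2 (0.0503) or KO replicate 1 (0.0551) was left out, in a range of 7.21e-07 to 0.0648. Without WT replicate 2 only 2 genes of this list were called higher, and without KO replicate 1 or WT replicate 1 there were 3.

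The last list held intermediate filament genes other than Vim, lamins included, and the filament linker gene Plec. Of 12 tested, 1 rose (8.33%), 9 fell (75%) and 2 did not pass, and the median log2 change was -0.56. Nes, the gene of nestin, a filament protein that co-assembles with vimentin in progenitor cells, had 21, 28 and 17 counts in KO and 1125, 1161 and 1229 counts in WT replicates 1 to 3, a log2 change of -5.81 (SE 0.14; adjusted p = 5.58e-10 in edgeR). Nes kept 1.77% of its WT level, against 36.8% for Vim. Synm, the gene of synemin, another partner of vimentin, fell by 0.94. The simple-epithelium keratin genes Krt7 and Krt8 fell by 1.88 and 0.76 on the log2 scale, and Krt18 by 0.55, whereas Krt19, a keratin of the same epithelia, rose from 354 ± 20.6 to 481 ± 41.3 CPM and was the 1 riser of the list. With library totals or upper quartile scaling 2 genes of the list were called higher.

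All 12 microRNA gene models in the fixed list, among them those of the miR-200 family that target Zeb transcripts, had no count in any library. Libraries of this kind do not capture mature microRNAs, and no level of them was measured.

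**Figure D5:**
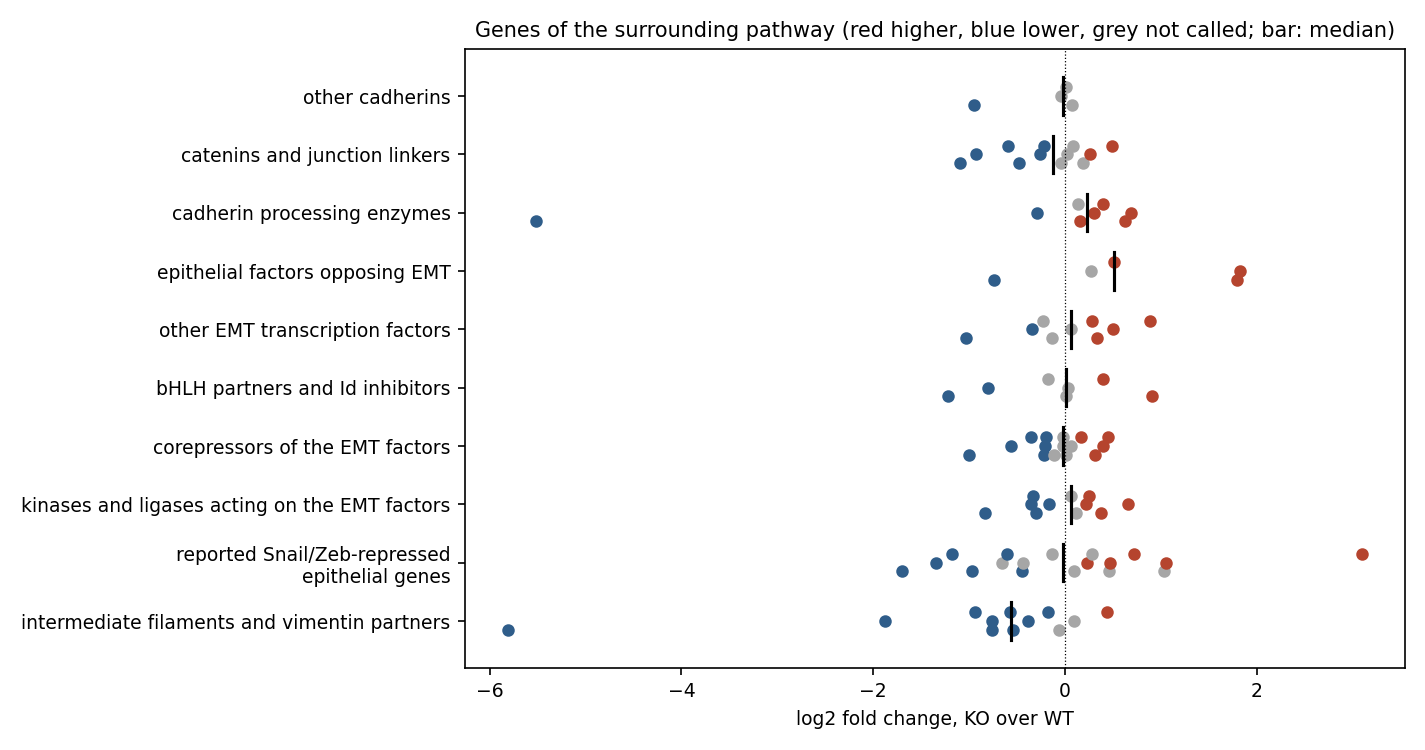
Log2 change (KO over WT) of each tested gene in the 10 lists around the members; red points were higher, blue lower and grey not called, and the black bar is the list median. The medians lie between -0.56 for intermediate filaments and 0.51 for factors opposing EMT, and Nes and Mmp14 stand far to the left.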

How the data were processed

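Raw counts of reads per Ensembl gene were deposited by the authors for 3 KO and 3 WT libraries, as unscaled whole numbers. The submitters' processing notes list STAR 2.5.2b, Subread 1.5.2, Trimmomatic 0.36, DESeq2 and bcl2fastq 2.17, with GRCm38 as the build. Strand setting, annotation release and treatment of multi-mapped reads: not given in the sources used here. Symbols, positions and exon lengths came from GENCODE M21, which matched 49056 of 49315 gene IDs.

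The test was edgeR 4.0.16 (R 4.3.3), with filterByExpr at a minimum count of 10 and TMM scaling. It used a robust quasi-likelihood fit with genotype as its only term and Benjamini-Hochberg adjustment over all tested genes. A check on simulated counts changed only a small part of the genes, so it does not cover changes as broad as those here. FPKM values are TMM-scaled counts per kilobase of merged exons. Ratios within libraries used log2 of counts plus 0.5 and exact permutation (scipy 1.17.1). The alternatives were other scalings, filters, tools (DESeq2 1.42.0, limma 3.58.1), a replicate block and leaving out each library.

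The members and the lists were chosen with earlier results of these data known. Named genes were the members, Chchd2, genes overlapping a member and, from each list around the members, up to 4 called genes, those changing most among genes reaching 1 CPM in a genotype. Cell type markers, untested genes and others named beyond this rule were chosen after their values were seen.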

Additional observations from a re-analysis of the deposited data

How the results depend on the processing

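The calls of Snai1, Zeb1, Zeb2, Cdh11 and Vim and the lack of one for Twist2 kept their direction and their side of the threshold under all 14 alternatives, and so did Twist1 and Cdh1 in the 13 that tested them, since a filter of 1 CPM removed both. No member changed sign. The count of members called higher was 3, and 1 to 3 when 1 library was left out. It was 1 without KO replicate 1 or WT replicate 2, and 2 without KO replicate 2, WT replicate 1 or WT replicate 3. Over all tested genes the fits without 1 library called 3789 to 4938 higher. When 1 library was left out, the log2 change of Snai2 ran from 0.48 to 0.85 and that of Cdh2 from 0.14 to 0.21. Fewer libraries enter these fits, and no further cause was tested. With library totals the median of all genes moved from 0.01 to 0.13, with 5771 higher and 3294 lower genes in place of 4463 and 4462, and Cdh2 was at 0.31. Libraries of both genotypes are labelled Set 1 to Set 3, and the labels do not say what a set is. Same-numbered libraries did not deviate together (correlations of -0.06, 0.05 and 0.03). Such correlations from 3 libraries per genotype cannot show whether the libraries were prepared as pairs. With the replicate number as a block, 3 members were called higher and 5 lower, with all genes at 4412 higher and 4466 lower. For the ratio of Cdh2 to Cdh1 the block left the difference at 0.52 (p = 0.25 by exact sign permutation, the smallest that 3 pairs allow), and an offset of 1 or 3 counts gave 0.51 and 0.49. Low counts limit what can be said of Cdh1 and Twist1.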
